A study of Mus musculus with 40 samples.

Results

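Interferon-induced genes are switched on when a cell meets type I interferon, the alarm signal of virus infection, or interferon-gamma, the signal of activated lymphocytes. Type I interferon acts through the receptor chains Ifnar1 and Ifnar2 and the kinases Jak1 and Tyk2 on a complex that holds Stat2 and Irf9 and binds the interferon-stimulated response element (ISRE). Interferon-gamma acts mainly on the gamma-activated site (GAS). In the brain, microglia, astrocytes and glioma cells can all respond, and the products block viral RNA, tag proteins with Isg15 or feed back on the pathway.

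The levels of 40 such genes were described here, of 42 that were listed by name with antigen presentation genes left out, among 18193 genes with a probe set naming 1 gene. Isg15 had only a probe set shared with other genes and Ifi44 had none with 1 gene name, so both were not analysed here. The list was a list of names with no measured value in its rule, but it was drawn up with earlier results of these data known. Of the 40 genes, 25 were read by 1 probe set and 15 by several, of which the brightest was taken.

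RNA was measured on Affymetrix mouse genome arrays, 1 array a sample, in 5 groups. The p53 null CKO gliomas (n = 11) were malignant gliomas of hGFAP-cre+;p53floxE2-10/floxE2-10 mice. The p53 R172H CKO gliomas (n = 11) were malignant gliomas of hGFAP-cre+;p53LSLR172H/floxE2-10 mice, which join 1 deleted allele to the missense allele R172H. The 11 R172H lines were cell lines derived from R172H gliomas, and the study describes these lines and the 11 R172H gliomas as pairs. A further 2 lines of that genotype came from early biopsies. Of the 5 normal cortices, 3 were from hGFAP-cre+;p53floxE2-10/+ mice (arrays 30, 31 and 32) and 2 from hGFAP-cre-;p53floxE5-6/floxE5-6 mice (arrays 33 and 34), so the groups did not share a p53 genotype and the control mice were not all of 1 kind. Cre was driven by a human GFAP promoter, which is active in neural progenitors and astrocytes, so recombination is limited to neural cells and their descendants. The labels gave no age or batch and did not say which line came from which tumor, so lines and gliomas were compared unpaired, arrays 35 to 45 were all p53 null CKO gliomas and the R172H samples had later numbers, and, since no label says which samples came from separate animals, a p-value here speaks only of the spread among these arrays. Gliomas and cortices were bulk tissue, in which fewer cells of a type and less RNA per cell cannot be told apart.

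The control regions of the genes were searched for ISRE and GAS cores. The genes were listed as interferon-induced, so the shares found are no independent test of the list. RefSeq (GRCm38.p6) gave a promoter window, 250 bases before to 50 bases after the start, for 31 of the 40 genes. An ISRE core was searched as GAAANNGAAA or its reverse complement TTTCNNTTTC, and a GAS core as TTCNNNGAA, which reads the same on both strands; matches of both kinds may overlap. An ISRE core stood in a window of 16 of the 31 genes (51.6%), against 1079 of 27025 genes with a window (4.0%), and 7 of the 31 held more than 1. A GAS core stood in 9 of the 31 (29.0%), against 2582 of 27025 (9.6%), and 11 genes had neither, among them Oasl1, Oasl2, Irf7, Irf9 and Cmpk2. The stretches below run 20 bases to each side of the matches in the sense of the gene, with the matched cores in capitals. Ifit1, Ifit3, Bst2 and Gbp3 are shown as windows with more than 1 ISRE core:
Ifit1, chr19:34640765-34640833, plus strand: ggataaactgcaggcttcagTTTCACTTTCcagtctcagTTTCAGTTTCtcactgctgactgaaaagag
Ifit3, chr19:34583353-34583436, plus strand: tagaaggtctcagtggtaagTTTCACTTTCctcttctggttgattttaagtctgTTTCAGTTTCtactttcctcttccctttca
Bst2, chr8:71537567-71537628, minus strand: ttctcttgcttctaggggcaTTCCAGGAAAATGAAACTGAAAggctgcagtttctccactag
Gbp3, chr3:142559979-142560034, plus strand: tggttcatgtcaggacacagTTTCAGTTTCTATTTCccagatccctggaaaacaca
In Bst2 a GAS core overlaps the first ISRE core, and in Igtp both kinds stand side by side. The windows of Irf1 and Isg20 held a GAS core and no ISRE core:
Igtp, chr11:58199491-58199551, plus strand: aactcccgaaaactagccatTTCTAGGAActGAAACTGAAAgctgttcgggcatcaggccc
Irf1, chr11:53769904-53769952, plus strand: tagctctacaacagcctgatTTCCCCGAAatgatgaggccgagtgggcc
Isg20, chr7:78913331-78913379, plus strand: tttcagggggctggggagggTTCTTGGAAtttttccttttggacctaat
Trim30a, Rsad2, Oas3 and Stat2 each held 1 ISRE core and are shown as genes with a single match, of which Oas3 gave only dim signals on these arrays:
Trim30a, chr7:104465200-104465249, minus strand: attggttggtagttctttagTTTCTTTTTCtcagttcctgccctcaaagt
Rsad2, chr12:26456543-26456592, minus strand: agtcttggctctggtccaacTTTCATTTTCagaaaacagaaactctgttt
Oas3, chr5:120777705-120777754, minus strand: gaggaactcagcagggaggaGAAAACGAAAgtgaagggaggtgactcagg
Stat2, chr10:128270256-128270305, plus strand: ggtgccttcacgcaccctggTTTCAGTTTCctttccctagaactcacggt
A match is a run of letters, not a measured binding site.

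Interferon-induced genes were higher in gliomas than in normal cortex. Of the 40 genes, 37 rose and none fell in the 22 gliomas against the 5 cortices, with a median log2 difference of 2.54 against -0.03 over all 18193 genes. Of all genes, 22.6% rose and 24.7% fell in this comparison (limma, Benjamini-Hochberg adjusted p under 0.05). In 6 genes, Oas1a, Oasl1, Bst2, Mx1, Trim25 and Ifi35, every glioma lay above every cortex, which 3.91% of all genes did. The 3 genes that did not pass were Stat2 at 0.78, Cmpk2 at 0.36 and Oas3 at 0.07. Signals of Oas3, an oligoadenylate synthetase, were below the array medians (5.24 to 5.47) in all 40 arrays, at 3.58 to 5.0, so its probe set shows little about the gene. In cortex, the means of 12 genes lay below the mean array median of 5.36, where a dim signal cannot be told from none and a difference can be understated.

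**Figure D1:**
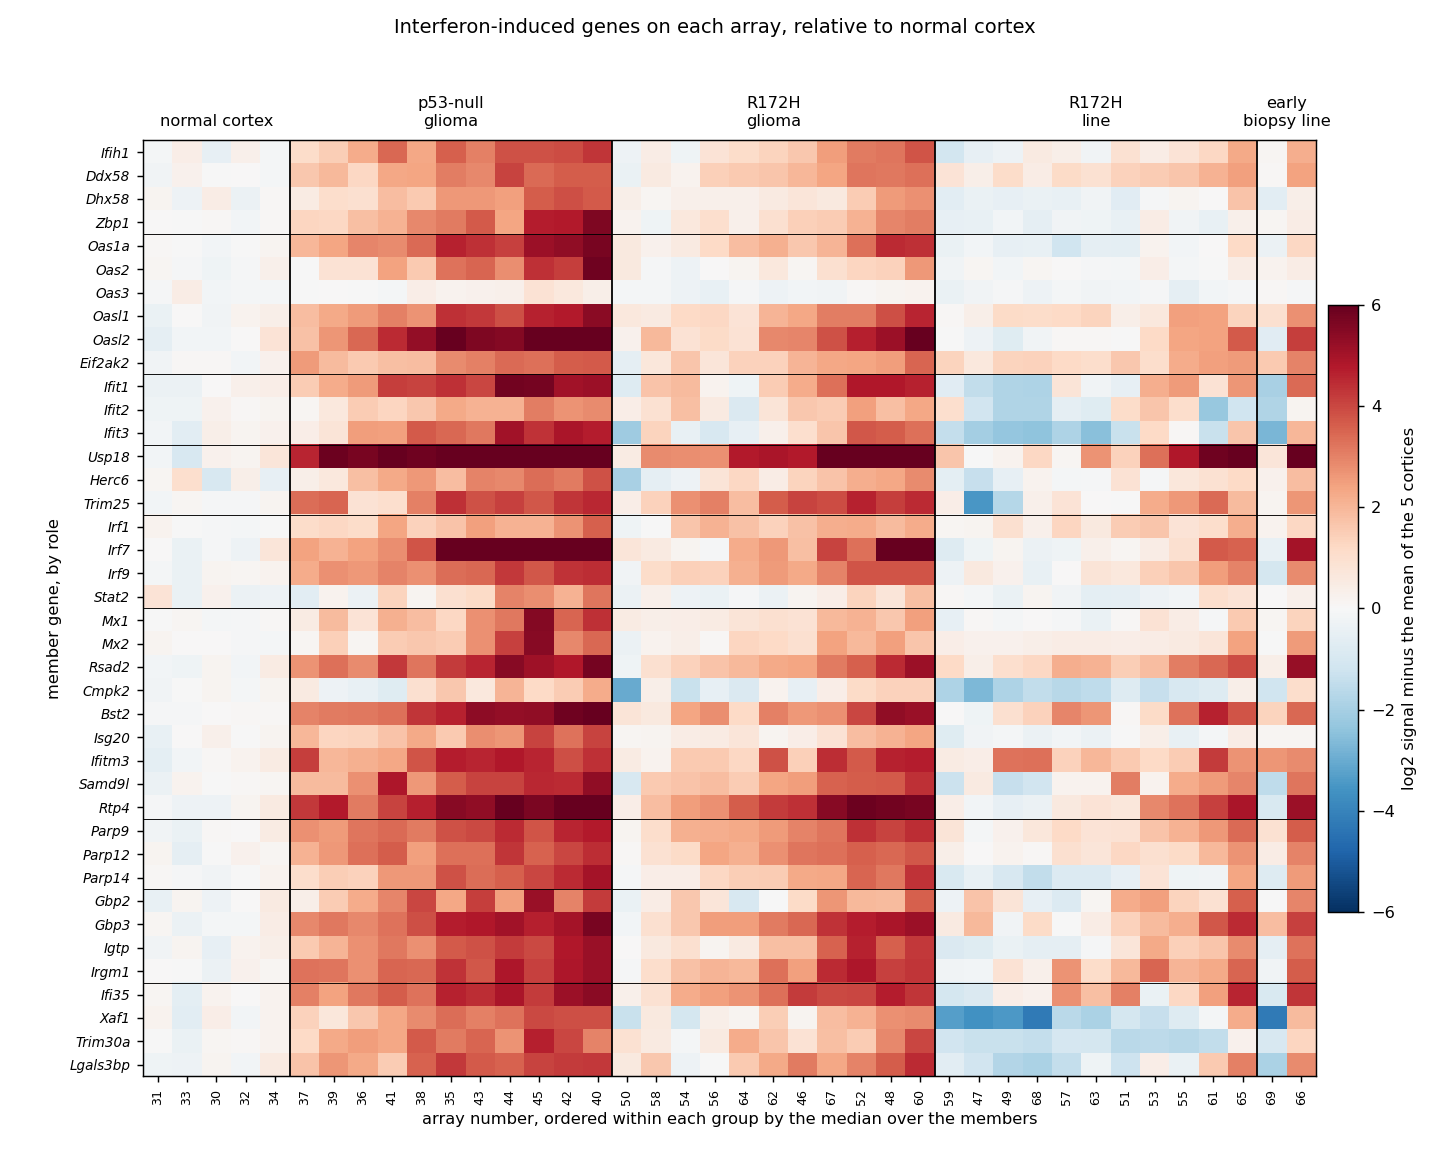
Log2 signal of the 40 interferon-induced genes (rows, by role) on the 40 arrays (columns, numbered as in the labels and ordered within each group by the median over the genes), as the difference from the mean of the 5 cortices, with the color scale ending at 6 on either side. The p53 null CKO gliomas are red in nearly all rows, while R172H gliomas and lines run from near cortex (arrays 50 and 59) to high (arrays 60 and 65).

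The largest fitted rise was that of Usp18, the protease that removes Isg15 from proteins and dampens signaling at the type I receptor. Its log2 signal in the cortices was 4.93, 4.51, 4.86, 3.75 and 5.42 (arrays 30 to 34). In the 22 gliomas it had a lowest value of 5.19, a median of 10.70 and a highest value of 12.28. Array 50, an R172H glioma, lay within the range of the cortices, and the other 21 gliomas lay above it. The log2 difference was 5.54 (SE 0.94), a 46.5-fold change with adjusted p = 9.36e-06 from limma. Usp18 and Oasl2 are among the 12 genes with a dim cortex signal, so their folds rest on a baseline that cannot be told from none and their rank is uncertain.

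Rtp4, a transporter chaperone with antiviral activity, had cortex signals of 6.09, 6.34, 6.55, 6.11 and 6.95. The gliomas ran from 6.80 in array 50 over a median of 11.11 to 12.52 at the highest. Again 21 of 22 gliomas lay above every cortex, and the log2 difference was 4.46 (SE 0.81, adjusted p = 2.27e-05). Oasl2, an oligoadenylate synthetase-like protein that helps RNA sensing, was 4.52, 4.12, 4.70, 4.53 and 5.49 in cortex and 4.93 to 11.53 in gliomas, with a median of 8.82. Its log2 difference was 3.87 (SE 0.81, adjusted p = 0.000161), and array 50 again overlapped the cortices.

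Every role was represented among the genes that rose. All 4 sensors of foreign nucleic acid passed: Ifih1 (2.28) and Ddx58 (2.24), the helicases MDA5 and RIG-I, Dhx58 (1.58), their relative LGP2, and Zbp1 (2.15), which binds Z-form nucleic acid. Of the 2-5A synthetases and PKR, 5 of 6 passed, with Oas1a at 2.96, Oasl1 at 2.86 and the kinase gene Eif2ak2 at 2.16. The IFIT proteins, which bind viral RNA at its capped or bare end, gave 3.12 for Ifit1, 2.11 for Ifit3 and 1.52 for Ifit2. In the Isg15 system Trim25, a ligase that activates RIG-I, rose by 3.22 and Herc6, the ligase for Isg15 in mice, by 1.62. Of the transcription factors, Irf7, which amplifies interferon production, rose by 3.75, Irf9 by 2.81 and Irf1 by 1.76, and Stat2 did not pass. Of the 9 antiviral effectors 8 passed, from Rtp4 down to Isg20 at 1.67, among them Bst2, the tether of budding virus particles, at 3.64, Rsad2, which makes a chain-terminating nucleotide, at 3.31 and Ifitm3, which blocks viral entry, at 3.13. The 3 PARP genes rose by 2.44 to 3.18, and the 4 GTPases induced mainly by interferon-gamma, Gbp3, Irgm1, Igtp and Gbp2, by 2.05 to 3.59. Ifi35, Lgals3bp, Trim30a and Xaf1, a partner of apoptosis inhibitors, rose by 1.82 to 3.52. The rise of Xaf1 did not pass when any single cortex was left out or with only the Cre-positive cortices.

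**Figure D2:**
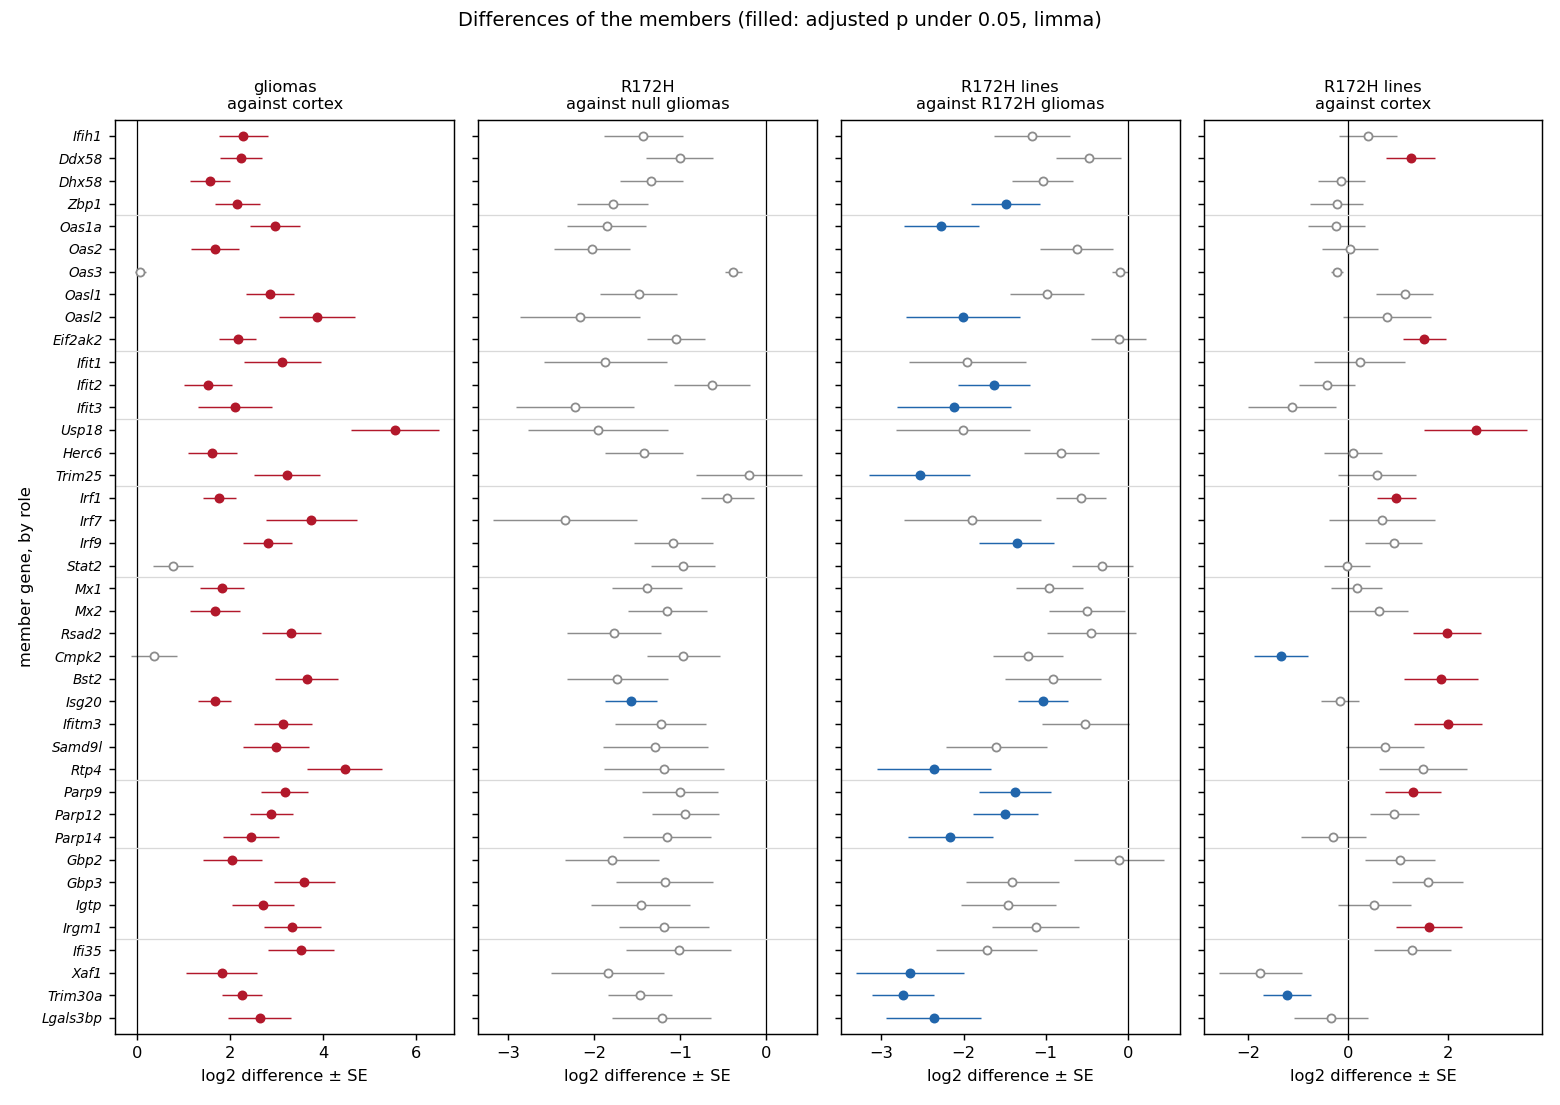
Log2 difference with its standard error (x axis) for each of the 40 genes (y axis, by role) in 4 comparisons, one a panel. Filled points passed at an adjusted p under 0.05, red for higher and blue for lower: 37 higher in gliomas against cortex, 1 lower in R172H against null gliomas, 15 lower in R172H lines against R172H gliomas, and 9 higher and 2 lower in R172H lines against cortex.

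Several genes were read by more than 1 probe set, and these did not always give the same size. For Herc6 the brightest probe set gave 1.62 and the next one 0.33 (adjusted p = 0.459), with 1.70 and 1.10 from the other two, and for Rtp4 the values were 4.46 and 1.34. In Dhx58 the other 2 probe sets gave 0.13 and 0.30 (adjusted p = 0.294 and 0.0719), both from signals far below the array medians. For Xaf1 the brightest probe set gave 1.82 and the other one 1.34 (adjusted p = 0.0668 from limma).

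Markers of microglia and macrophages moved in the same comparison. Of 23 such genes, 18 rose and 1 fell in gliomas, with Ptprc at 8.18 in gliomas against 6.32 in cortex (difference 1.86, SE 0.27, adjusted p = 8.67e-07), Aif1 at 8.80 against 7.18, and Cx3cr1, which did not pass, at 8.50 against 8.94. The summed level of the list, its median difference from the cortex mean on an array, ran from 0.37 to 2.73 in the 22 gliomas and from -0.30 to 0.34 in cortex. Of 12 measured T and NK cell genes 1 rose and 4 fell, with scores from -0.38 to 0.36 in gliomas, and Cd3e, part of the T cell receptor complex, was at 4.50 to 5.12 in gliomas, below the array medians. The gene that rose was the chemokine gene Ccl5, which many cell types can express, with a log2 difference of 3.21, and it reached 9.80 in line 65, where Cd3e was at 4.42. Gzma and Gzmb of the same list did not pass as higher, but single tumors stood out. They were 5.75 and 6.65 in glioma 40 and 5.11 and 5.61 in glioma 42. Cortices were at 3.39 to 4.0 for Gzma and 3.19 to 4.10 for Gzmb, and the other gliomas at 3.15 to 4.79 and 3.47 to 5.28. Neuron markers fell in all 6 genes, with Snap25 at 9.40 against 13.44, and Olig2 of the oligodendrocyte lineage was 9.93 against 7.63. The part of these cell types in the rise of the interferon-induced genes was not tested. On single tumors, the R172H glioma of array 50 was the lowest of its genotype in both lists (microglia score 0.37, interferon score 0.04) and that of array 60 the highest in both (2.56 and 3.88). Among p53 null CKO gliomas the lowest and highest microglia scores were those of arrays 44 (0.56) and 42 (2.73), whose interferon scores were 4.06 and 4.23.

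The 2 glioma genotypes were compared to ask whether the missense allele went with another level of these genes. All 40 genes had lower means in the R172H gliomas than in the p53 null CKO gliomas, with a median log2 difference of -1.31 against 0 over all genes, but 1 gene passed the test. That gene was Isg20, an exonuclease that degrades viral RNA. Of all genes 0.033% fell and 0% rose at an adjusted p under 0.05, and the unadjusted p was under 0.05 for 35 of the 40 genes and for 11.1% of all genes. All 40 genes were read on the same tumors, so they are not 40 separate readings of this difference.

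Isg20 was 6.21 at the lowest, 7.23 at the median and 9.0 at the highest in p53 null CKO gliomas. In R172H gliomas it was 5.07, 5.45 and 7.30, so the ranges overlapped. Its cortex values were 5.27, 4.48, 4.92, 4.95 and 5.10. The R172H minus null difference was -1.58 on the log2 scale (SE 0.30, adjusted p = 0.0423). It did not pass when array 40, 42, 43, 44, 45, 46, 54, 56, 58, 62 or 64 was left out (adjusted p from 0.0534 to 0.117), with only the 2 groups in the model (0.364) or by the methods' t-test (0.286). The count of genes that fell was 0 without each of those arrays, 2 without array 36 or 38, 3 without array 39, 5 without array 37 or 60, and 6 without array 48.

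The 3 genes that varied most over the 22 gliomas were Irf7 (SD 2.52), Oasl2 (SD 2.09) and Ifit3 (SD 2.08), and none of them passed between genotypes. Irf7 in p53 null CKO gliomas ran from 7.99 over 11.89 to 13.50, and in R172H gliomas from 5.81 over 8.14 to 12.55, a difference of -2.34 (SE 0.84, adjusted p = 0.256). Cortex signals of Irf7 were 5.83, 5.93, 5.59, 5.50 and 6.61. The highest R172H glioma, array 60, thus lay above the median of the other genotype. Oasl2 ran from 6.41 over 10.19 to 11.53 and from 4.93 over 7.54 to 10.74, a difference of -2.17 (SE 0.70, adjusted p = 0.194). Ifit3 ran from 7.72 over 10.78 to 12.36 and from 5.18 over 8.35 to 11.07, with cortices at 7.69, 7.18, 7.49, 6.70 and 7.58, and its difference was -2.23 (SE 0.69, adjusted p = 0.177). Trim25 differed least, at -0.21 (SE 0.62), and Irf1 was at -0.45 (SE 0.30).

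On single tumors the spread was wide. The interferon score, the median difference of the 40 genes from the cortex mean, averaged 3.20 ± 1.0 (SD, n = 11) over the p53 null CKO gliomas, with 1.67 in array 37 as the lowest and 4.48 in array 40 as the highest. It was 1.84 ± 1.28 (SD, n = 11) in R172H gliomas, from 0.04 in array 50 to 3.88 in array 60, and -0.10 to 0.21 in the 5 cortices. Of the 11 R172H gliomas, 5 lay within the range of the p53 null CKO gliomas and 6 below it. Against the 5 cortices, 38 of the 40 genes rose in the p53 null CKO gliomas alone and 27 in the R172H gliomas alone, 2 comparisons that share the cortices. Array 40 was the highest p53 null CKO glioma in 26 of the 40 genes, array 60 the highest R172H glioma in 27, and array 50 the lowest in 25. In 32 of the 40 genes every p53 null CKO glioma lay above every cortex, and in 6 every R172H glioma did. The share over all genes was not computed for either genotype alone. The counts of 38, 27, 32 and 6 therefore cannot be set against that of all genes. The median SD of the 40 genes was 1.09 in p53 null CKO gliomas and 1.39 in R172H gliomas, where the median over all genes was 0.41 and 0.43.

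No marker of other cells passed between the 2 genotypes, but 0.033% of all genes fell and 0% rose, so this tells little about the cells. The unadjusted limma p was under 0.05 for 4 of 23 microglia and macrophage genes and 5 of 12 T and NK cell genes, against 11.1% of all genes. It was so for 1 of 9 endothelial, 1 of 6 astrocyte and 0 of 6 neuron genes. Of 23 microglia and macrophage genes 22 had a lower mean in R172H gliomas and none passed (median -0.34), with scores of 1.62 ± 0.57 and 1.30 ± 0.74 (SD, n = 11 each). Ptprc differed by -0.37 (SE 0.23) and Cd3e by -0.16 (SE 0.07), with 10 of 12 T and NK cell genes below 0, and all 6 astrocyte markers were below 0 with a median of -0.79. Ccl5 was 9.04 ± 1.17 against 7.17 ± 1.26 (SD, n = 11 each), a difference of -1.87 (SE 0.54, adjusted p = 0.147). The part of these cells in the difference was not tested. Gliomas 50 and 36 also had low scores of oligodendrocyte progenitor markers (-2.72 and -1.61), and gliomas 38, 45 and 58 had neuron scores of -0.65, -0.57 and 0.19, near the cortices. The study reports that histology had found normal tissue mixed into an R172H primary tumor that went on the arrays. The study gives this tumor a number in its own figure, but no label ties that number to an array. Array 58 had the highest neuron score of the R172H gliomas, and whether it was that tumor was not tested. Without arrays 38, 45 and 58 the median over the 40 genes was -1.08 and without arrays 36 and 50 it was -1.20.

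**Figure D3:**
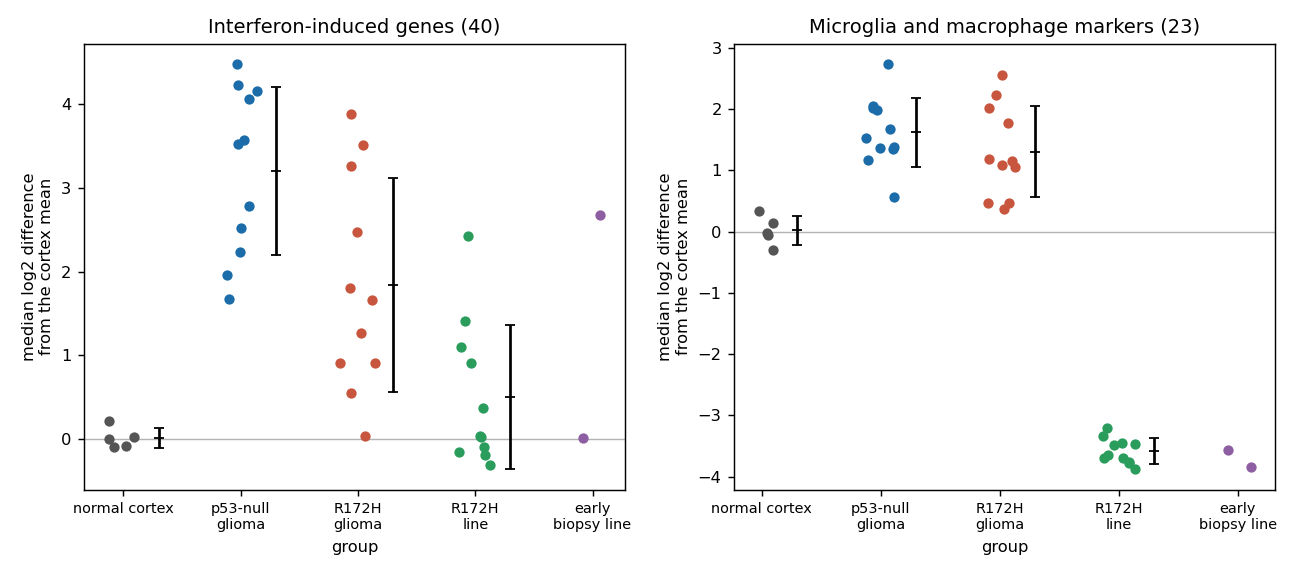
Median log2 difference from the cortex mean (y axis) over the 40 interferon-induced genes (left) and over 23 microglia and macrophage markers (right) for each array (points) by group, with the mean and SD as bars for groups of 5 or 11 arrays. The lines lie from -3.88 to -3.21 for the microglia markers, far below the cortices, and from -0.31 to 2.43 for the interferon-induced genes.

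Cultured lines were compared with the tumors of their genotype to see which of these genes stayed high outside the brain. All 40 genes had lower means in the 11 R172H lines than in the 11 R172H gliomas, with a median log2 difference of -1.36 against 0.05 over all genes, and 15 of the 40 fell while none rose. Of all genes, 6.43% fell and 7.24% rose. The 15 were Zbp1, Oas1a, Oasl2, Ifit2, Ifit3, Trim25, Irf9, Isg20, Rtp4, the 3 PARP genes, Xaf1, Trim30a and Lgals3bp. None of the 4 interferon-gamma-induced GTPases passed, but all 4 had lower means in the lines. Their median difference was -1.26, near the -1.36 over the 40 genes. Of the 15, 11 passed whichever single glioma or line was left out, and Ifit3, Irf9, Oasl2 and Parp9 were the ones that did not always pass. The count was 24 without glioma 50 and 24 without line 65.

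Trim30a, a negative regulator of inflammatory signaling, fell most. It ran from 4.99 over 6.60 to 9.09 in the R172H gliomas and from 3.45 over 3.74 to 5.35 in the lines, with line 65 highest, and all lines but line 65 were at 3.45 to 4.07. Its cortex signals were 5.19, 5.07, 5.18, 4.71 and 5.32, so 10 of 11 lines lay below every cortex. The difference from the gliomas was -2.74 (SE 0.38, adjusted p = 1.43e-06), and the line signals lay below the array medians. Xaf1 ran from 7.61 over 9.53 to 11.76 in gliomas and from 4.69 over 7.32 to 11.18 in lines, with cortices at 9.32, 9.16, 8.76, 8.33 and 9.14, and its difference was -2.65 (SE 0.66, adjusted p = 0.00507). The other probe set of Xaf1 gave -1.44 and did not pass (adjusted p = 0.0636 from limma). Trim25 ran from 7.14 over 10.37 to 11.34 in gliomas and from 3.25 over 7.11 to 10.14 in lines, a difference of -2.54 (SE 0.62, adjusted p = 0.00442). The other probe sets of Trim25 gave -2.47 and -0.70 (adjusted p = 0.00834 and 0.0603 from limma). The cortices were at 6.64, 6.57, 6.66, 6.86 and 6.91 for Trim25, and line 47 was the lowest of all arrays.

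Apart from Oas3, whose signal was dim throughout, the smallest differences were those of Gbp2, a guanylate-binding GTPase, at -0.11 (SE 0.55), Eif2ak2 at -0.12 (SE 0.34) and Stat2 at -0.31 (SE 0.37), and none of these passed. Over the same comparison all 23 microglia and macrophage markers fell (median -4.72), with Ptprc at 3.63 in lines against 8.0 in gliomas (adjusted p = 2.05e-17), Aif1 at 3.72 against 8.55 and Cx3cr1 at 5.02 against 8.40, and all 9 endothelial markers fell, with Pecam1 at 3.75 against 4.63. Ptprc and Aif1 were thus below the array medians in the lines, where the interferon score of line 65 was 2.43. How much of the lower level in lines came with the loss of these cells was not tested.

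**Figure D4:**
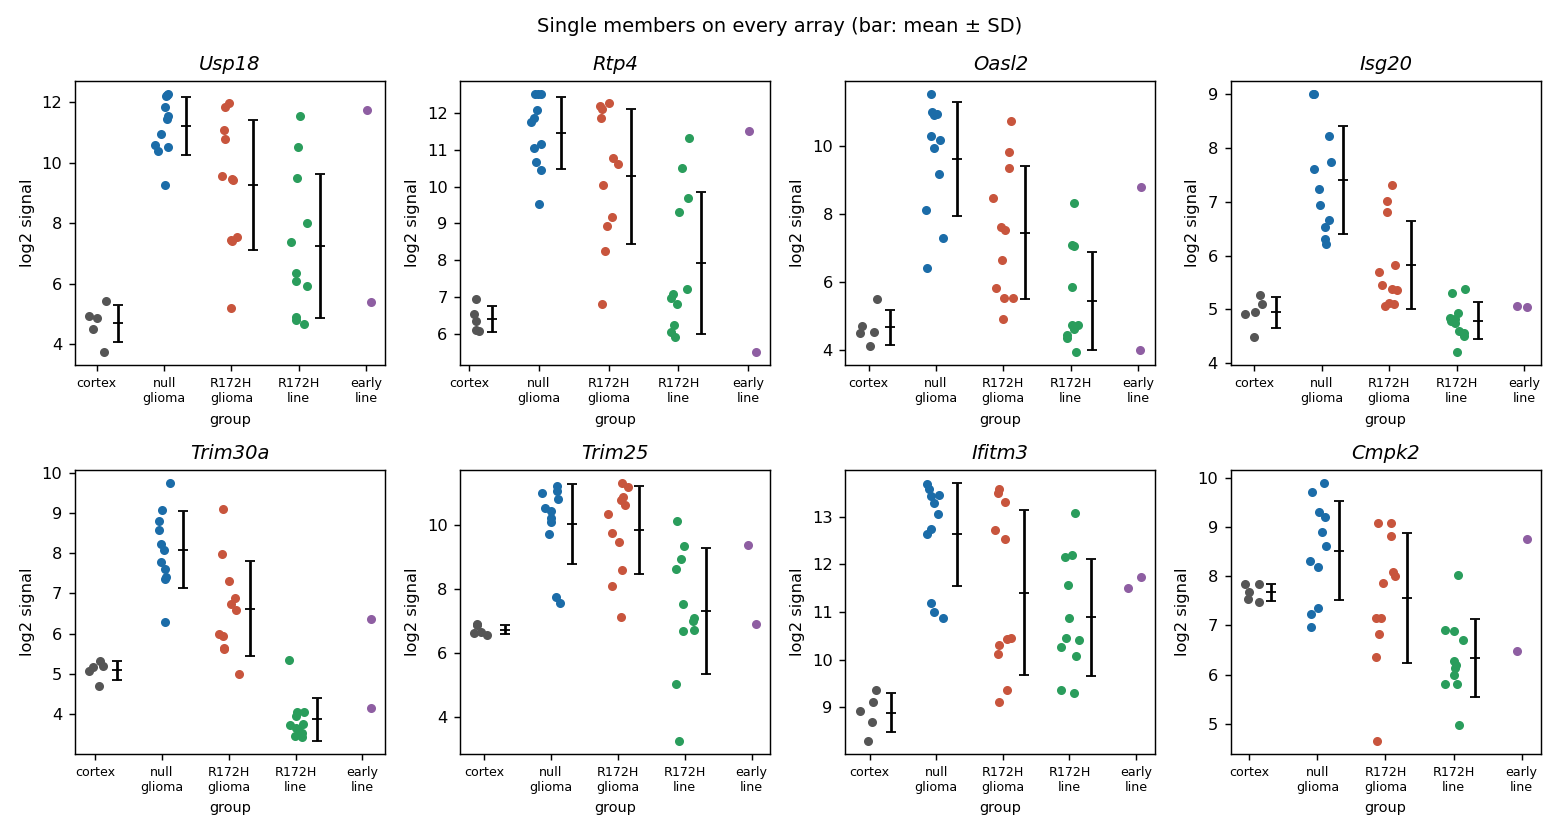
Log2 signal (y axis) of 8 genes on every array by group (x axis), with the mean and SD beside groups of 5 or 11 arrays. Usp18 and Rtp4 spread over the whole range from cortex to tumor in the lines, Trim30a is low in all lines but array 65 (5.35), and Cmpk2 lies below every cortex in 10 of 11 lines.

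Against normal cortex, the lines showed a mixed pattern. Of the 40 genes 9 rose (22.5%) and 2 fell, with a median log2 difference of 0.60 against 0.02 over all genes, and 25.5% of all genes rose and 24.3% fell. The share of the list that rose was therefore not above that of all genes. In Eif2ak2, Mx2 and Ddx58 every line lay above every cortex, which 16.1% of all genes did. The genes that rose were Usp18, Ifitm3, Rsad2, Bst2, Irgm1, Eif2ak2, Parp9, Ddx58 and Irf1, and those that fell were Cmpk2 and Trim30a. The lines and the gliomas were compared with the same 5 cortices.

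Usp18 in the lines ran from 4.68 over 6.36 to 11.54, and 8 of 11 lines lay above every cortex. The difference was 2.56 (SE 1.03, adjusted p = 0.0366). Ifitm3 ran from 9.29 over 10.46 to 13.07, with cortices at 8.93, 8.30, 9.11, 8.70 and 9.37, and 9 of 11 lines above them (2.00, SE 0.67, adjusted p = 0.0124). Rsad2 ran from 6.67 over 8.18 to 10.22, with cortices at 6.46, 6.15, 6.14, 6.05 and 6.79 and 10 of 11 lines above them (1.98, SE 0.69, adjusted p = 0.0158). Cmpk2, a mitochondrial nucleotide kinase whose gene lies beside Rsad2, moved the other way. It ran from 4.98 over 6.19 to 8.02 in lines and was 7.85, 7.47, 7.54, 7.67 and 7.84 in cortex, so 10 of 11 lines lay below every cortex (-1.34, SE 0.54, adjusted p = 0.0364). Trim30a differed by -1.22 (SE 0.47, adjusted p = 0.0318), and its other probe set gave -0.95 and did not pass (adjusted p = 0.0913 from limma).

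These counts rest on few cortices. The number that rose was 3, 4, 3, 4 and 4 without cortex 30, 31, 32, 33 and 34, and 2 (Eif2ak2 and Ifitm3) with only the 3 Cre-positive cortices. Among lines it was 5 without line 55, 4 without line 61 and 3 without line 65. Eif2ak2, Ifitm3 and Rsad2 passed whichever single array was left out. The number that fell was 0 without cortex 30, 31, 32 or 34 and 1 without cortex 33 or line 47, 49 or 59.

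The lines differed from each other in these genes more than in most. The median SD of the 40 genes over the 11 lines was 1.08, against 0.33 over all genes, and 37 of the 40 lay above that value. The interferon score was -0.31 to 0.03 in lines 59, 47, 49, 68, 57 and 63, 0.37 in line 51, 0.91 in line 53, 1.10 in line 55, 1.41 in line 61 and 2.43 in line 65. Line 65 was the highest line in 31 of the 40 genes, and 32 of them were over 2-fold above the cortex mean there, against 2 to 10 in the 6 lowest lines. Microglia scores of these same lines were -3.88 to -3.21, with line 65 at -3.70.

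The genes with the largest SD over the lines were Usp18 (2.38), Trim25 (1.98) and Rtp4 (1.92). Usp18 was 4.68, 4.82 and 4.91 in lines 47, 57 and 49, within the cortices, and 9.50, 10.54 and 11.54 in lines 55, 61 and 65, within the gliomas. Against the R172H gliomas its difference was -2.01 (SE 0.81, adjusted p = 0.0955), and it passed without glioma 50 (0.0331) or without line 65 (0.0314). Rtp4 ran from 5.92 in line 49 over 7.08 to 11.32 in line 65, against a range from 6.80 over 10.62 to 12.28 in R172H gliomas (-2.36, SE 0.70, adjusted p = 0.0194). With the mean of all its probe sets the difference of Rtp4 was -1.45 (adjusted p = 0.0506). Zbp1 and Isg20 did not share this spread, with 4.10 to 5.06 and 4.21 to 5.38 in all 11 lines, near or below the array medians.

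Lines with high scores were not high in every gene. Line 61 had 9.57 for Irf7, 10.84 for Bst2 and 13.07 for Ifitm3, each the highest of the lines, and 5.30 for Ifit2, the lowest. In line 65 Ifit2 was 6.35, below every cortex (7.29 to 7.82), while Ifit1 was 8.24 and Ifit3 9.0, the highest of the lines. Line 53 had the highest Ifit2, at 9.21. The 3 Ifit genes lie together on chromosome 19, where the Ifit1 and Ifit3 windows shown above were read. Samd9l was highest in line 51, at 9.12, a line with an interferon score of 0.37.

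**Figure D5:**
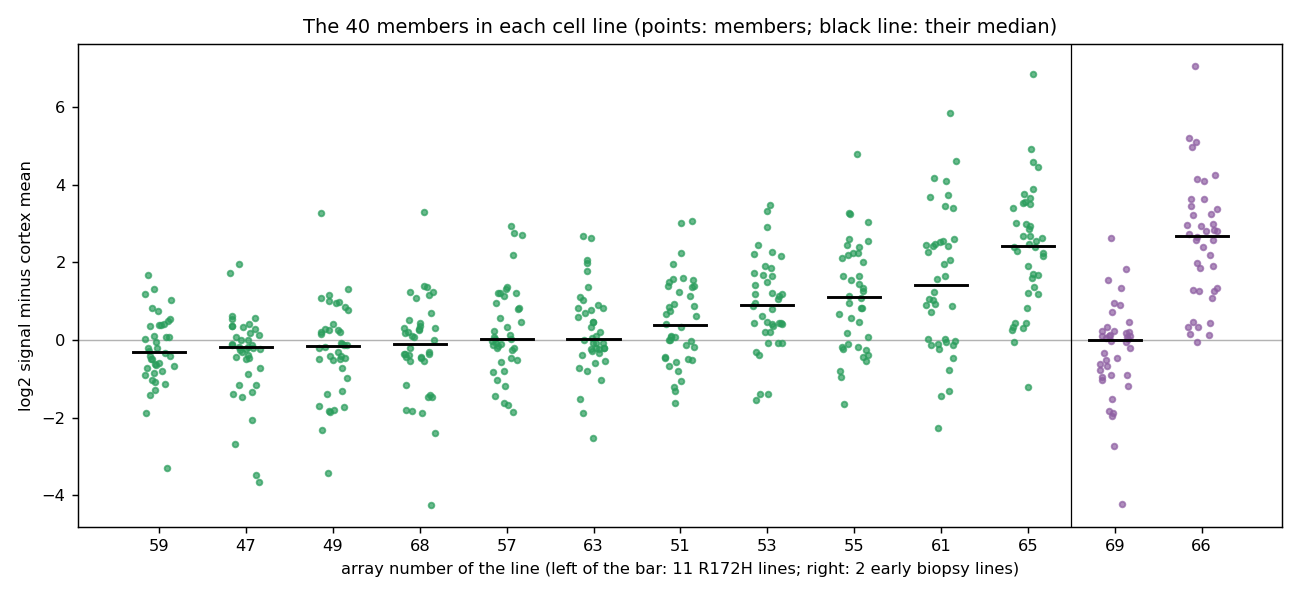
Log2 signal minus the cortex mean (y axis) of each of the 40 genes (points) in the 11 R172H lines and the 2 early biopsy lines (x axis, array numbers, ordered by the median drawn as a black line). The medians run from -0.31 in line 59 to 2.43 in line 65, and the 2 early biopsy lines stand at 0.01 and 2.68.

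The 2 early biopsy lines differed widely from each other. The interferon score was 2.68 in line 66, above all 11 R172H lines, and 0.01 in line 69, near their median of 0.03. Usp18 was 11.76 and 5.41, Rtp4 11.52 and 5.51, Irf7 10.88 and 5.43, Ifit1 9.0 and 3.65, and Xaf1 10.85 and 4.71 in lines 66 and 69. Ifitm3, at 11.73 and 11.51, was nearly the same in both. No gene of the 40 passed against the 11 R172H lines, where 0% of all genes rose and 0% fell, and at an unadjusted p under 0.05 there was 1 of the 40 (Trim30a) and 2.83% of all genes. With the methods' t-test the count was 0 after adjustment and 1 at an unadjusted p under 0.05. The median log2 difference over the 40 genes was 0.68, with 35 above 0, and became 1.98 without line 69 and -0.51 without line 66, so its direction rested on 1 line.

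Genes upstream of the response were read from a list of ligands, receptors, kinases, sensors and inhibitors, of which 33 were measured. Of the ligands, Ifnb1, the gene of interferon-beta, was 4.0 ± 0.14 (SD, n = 5) in cortex, 4.44 ± 0.52 in p53 null CKO gliomas, 4.21 ± 0.28 in R172H gliomas and 4.14 ± 0.28 in the lines (SD, n = 11 each). It was highest in gliomas 44, 40 and 42, at 5.26, 5.20 and 5.11, with the other gliomas at 3.65 to 4.79 and the cortices at 3.82 to 4.10. Glioma 40 had the highest interferon score of its genotype (4.48). In glioma 60, the highest R172H glioma (3.88), Ifnb1 was 4.14. Ifng, the gene of interferon-gamma, was 2.48 to 3.13 in all 40 arrays. Ifng lay below the array medians throughout and Ifnb1 below their mean of 5.36, and neither passed in any comparison.

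In gliomas 14 of the 33 upstream genes rose (42.4%) and 3 fell (9.09%) against cortex, with a median of 0.38. Of all genes 22.6% rose and 24.7% fell in this comparison. Socs3, a feedback inhibitor of cytokine signaling, rose most, by 3.60 (SE 0.55, adjusted p = 1.7e-06 from limma). It was followed by Irf8, known from myeloid cells but also read in some of the lines below, at 2.54 and Mb21d1, the DNA sensor cGAS, at 1.45. The partner of cGAS, Tmem173, the gene of STING, was at 1.25 and Mavs, the adaptor of RIG-I and MDA5, at 1.21. The others that rose, Ptpn2, Myd88, Samhd1, Stat3, Tlr7, Ifngr1, Irf3, Ifnar2 and Socs1, did so by 0.54 to 1.19. The kinase gene Jak1 (-1.23), the RNA-editing gene Adar (-1.05) and Pias1 (-0.60) fell. None of the 33 passed between the glioma genotypes, where 1 had an unadjusted limma p under 0.05, against 11.1% of all genes. None passed between early biopsy and R172H lines, where 0 had such a p, against 2.83% of all genes.

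In the lines the upstream genes went in both directions. Against R172H gliomas, 5 of 33 rose (15.2%), Mavs (0.88), Ifnar1 (0.54), Irf3 (0.62), Ticam1 (0.53) and Tlr9 (0.27). The 3 that fell (9.09%) were Irf8 (-2.41), Tlr7 (-1.51) and Ptpn6 (-0.41). Of all genes 7.24% rose and 6.43% fell. Irf8 was still 7.47, 6.81, 7.77 and 6.29 in lines 53, 55, 57 and 65, above every cortex (5.12 to 5.88), where Ptprc was at 3.21 to 3.81. In the other R172H lines Irf8 was at 4.25 to 5.62. Against cortex 12 rose (36.4%) and 5 fell (15.2%), where 25.5% of all genes rose and 24.3% fell. Among the 12 were Socs3 at 2.82, Mavs at 2.16 (SE 0.27, adjusted p = 2.81e-08 from limma), Tmem173 at 1.61 and Irf3 at 1.32. Among the 5 were Adar at -1.44 and Jak1 at -1.41. The receptor genes Ifnar1 and Ifngr1 rose by 0.82 and 1.08. The median over the 33 genes was 0.03 against the R172H gliomas, where it was -1.36 over the 40 interferon-induced genes.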

How the data were processed

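Total RNA of 40 samples was hybridised to Affymetrix mouse genome arrays, 1 color and 1 array a sample. The deposited table held log2 signals that the authors had obtained by robust multi-array averaging (RMA) after correcting the background and normalizing quantiles. The base of the logarithm was read from the values (2.00 to 14.47). Quantile normalization gives each array nearly the same distribution, so a shift of most genes at once would not be seen. Precision is set by how many arrays a group has.

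Probe sets were named from the platform annotation, those with 1 gene symbol were kept, and the brightest of them on average stood for a gene, which gave 18193 genes. Groups came from the labels. A linear model with 5 groups was fitted to all 40 arrays with limma 3.58.1 in R 4.3.3, and p-values were adjusted by Benjamini-Hochberg over all genes, with 0.05 as threshold. The same code was tested on simulated data with known changes. Means, scores and motif searches were made in Python 3.11.15.

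The genes and lists were chosen with earlier results of these data known. Genes given in full were, in each comparison, the 3 with the largest rise and the 3 with the largest fall among those that passed, and the 3 with the largest SD over the 22 gliomas and over the 11 lines. Genes singled out in single lines, as well as Ccl5, Gzma and Gzmb, were chosen after their values were seen. Other settings tried were averaging the probe sets of a gene, leaving out shared or dim probe sets, cyclic loess, array weights, a trended robust fit, only the compared groups, another threshold, the methods' t-test, the Cre-positive cortices alone and leaving out each array. Leaving out gliomas with high neuron or low progenitor markers and the separate comparison of each genotype with cortex were added after seeing the data. Isg15, Ifi44 and the sequences of genes without a RefSeq window were not analysed here.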

Additional observations from a re-analysis of the deposited data

Results flagged for a closer look

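Oas3 in cortex array 33 had a log2 signal of 4.57, away from the other 4 cortices at 3.99 to 4.04. Its gap to the nearest of them was 0.925 of the range of the group, and its signal was below the array medians. Ifi35 in the same cortex was 5.98, below the nearest other cortex at 6.56 and the highest at 6.77, a gap of 0.737 of the range. The 5 cortices were examined in this way for all 40 interferon-induced genes, and chance alone gives about 1 in 20. The difference of Isg20 between R172H and p53 null CKO gliomas, -1.58 on the log2 scale, was the one that passed the test between the genotypes.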

How the results depend on the processing

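Of 465 counts and medians recomputed under other settings, 414 stayed within the limits of the reported value, and none of 567 values of single genes changed direction (43 lost and 8 gained a pass). In gliomas against cortex the number that rose, reported as 37, was 34 with the methods' t-test after adjustment. With the Cre-positive cortices it was 33, without Ifit2, Ifit3, Mx2 and Xaf1. It was 35 to 37 when single arrays were left out. Between glioma genotypes the number of genes that fell, reported as 1, was 0 with only the compared groups, 0 with the methods' t-test after adjustment, 0 without the 3 gliomas with neuron markers, 2 with array weights, 3 at an adjusted p under 0.10 and 29 with the methods' t-test unadjusted, and 0 to 6 when single arrays were left out. In lines against R172H gliomas it was, instead of 15, 28 with array weights, 24 at an adjusted p under 0.10, 25 with the methods' t-test unadjusted, 24 without gliomas 36 and 50, and 11 to 24 when single arrays were left out. In lines against cortex the number that rose, reported as 9, was 3 with cyclic loess, 2 with the Cre-positive cortices and 3 to 10 when single arrays were left out, and the number that fell, reported as 2, was 1 with the mean of all probe sets, 0 with the Cre-positive cortices and 0 to 3 when single arrays were left out. For early biopsy lines the methods' t-test unadjusted gave 1 rise, and the median of 0.68 ranged from -0.51 to 1.98 when single lines were left out, the lone early line being assumed to vary like the other groups. The cause of these changes was not tested. No paired analysis was possible because the groups share no array number and, though the study describes the R172H gliomas and lines as pairs, no label says which line came from which tumor. Probe sets near the array medians can show little change, which limits what Oas3, Zbp1 and Ifnb1 can tell.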
